A study of Mus musculus with 9 samples.

Results

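The genes of necroptosis and pyroptosis described here were Fas, Casp8, Ripk1, Ripk3, Mlkl, Casp4 and Gsdmd, 7 of the 53924 named rows in the deposited tables, chosen by their symbols. The choice was made with earlier results of these data known. Their transcripts were counted in 9 RNA-sequencing libraries of total RNA from the cerebellum of mice. The 3 PLX3AP libraries came from mice given 3-acetylpyridine (3-AP) after PLX3397, the 3 3AP libraries from mice given 3-AP, and the 3 control libraries from mice given saline. 3-AP is a neurotoxin that lesions the inferior olive and makes rodents ataxic, and PLX3397 blocks the CSF1 receptor, on which microglia depend for survival. Both treated groups carried 3-AP, and mice given PLX3397 without 3-AP were not analysed here, so the comparison of PLX3AP with 3AP does not give the effect of PLX3397 in undamaged tissue. The sources used here give neither strain, age, doses and intervals nor whether each library came from its own animal. The p-values therefore weigh group differences against the spread between these libraries, which may be technical.

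Necroptosis and pyroptosis are forms of lytic cell death in which the plasma membrane is opened from within and the cell's contents reach the surrounding tissue. In necroptosis, death receptors of the TNF family assemble a complex around the kinase RIPK1, which passes the signal to the kinase RIPK3 and then to MLKL, a pseudokinase that permeabilises the membrane. Caspase-8 in the same complex drives apoptosis and restrains necroptosis by cleaving the kinases. In pyroptosis, inflammatory caspases cleave gasdermin D, whose released end forms membrane pores. In the brain, microglia and endothelial cells are among the cells known to express such genes, and several of them are induced by interferons or by NF-kB.

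Libraries held 18452256 to 22358447 estimated counts. Of the 53924 named rows, 16634 had enough counts to test. Marker genes of the labelled tissue were present in every group: the 9 Purkinje cell markers summed to medians of 10971 CPM in PLX3AP, 10862 CPM in 3AP and 10781 CPM in control, where CPM is the count scaled to library size with TMM factors. Choroid plexus markers varied widely within every group, with summed levels of 37.1 to 2044 CPM in PLX3AP, 629 to 1958 CPM in 3AP and 123 to 4012 CPM in control, which overlapped.

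The promoters of 6 of the 7 genes were found in RefSeq's table for GRCm38.p6, as 8 entries of 300 bases, each with 250 bases before a transcript's start. They were searched on both strands for the core of the interferon-stimulated response element (GAAANNGAAA), the gamma-activated site (TTCNNNGAA) and an NF-kB site (GGGNNTTTCC). Over all 32851 promoters in the table, 3.44% held the first, 8.30% the second and 1.63% the NF-kB letters. Entries of Casp4, Fas and Ripk1 are shown because they held a match. Bases that GENCODE annotates as exon were left out, and capitals mark the matches.
Casp4, chr9:5308599-5308827, plus strand: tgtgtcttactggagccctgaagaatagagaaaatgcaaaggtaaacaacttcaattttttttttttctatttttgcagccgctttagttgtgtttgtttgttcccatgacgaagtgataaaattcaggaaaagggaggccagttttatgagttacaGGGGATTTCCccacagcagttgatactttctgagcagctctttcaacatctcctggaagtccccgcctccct
Fas, chr19:34290409-34290658, plus strand: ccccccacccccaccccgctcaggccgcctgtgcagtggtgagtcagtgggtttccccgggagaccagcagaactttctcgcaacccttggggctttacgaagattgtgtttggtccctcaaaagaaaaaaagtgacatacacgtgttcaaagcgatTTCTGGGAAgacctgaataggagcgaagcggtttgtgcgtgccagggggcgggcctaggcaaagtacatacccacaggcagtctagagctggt
Ripk1, the downstream start, chr13:34002795-34002873, plus strand: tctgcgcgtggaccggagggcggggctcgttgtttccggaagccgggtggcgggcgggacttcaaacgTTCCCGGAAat
The capitals in Casp4 are an NF-kB match, and a second one on the opposite strand lies nearer the start, within an annotated first exon. Those in Fas and Ripk1 are gamma-activated sites, which match on both strands. Ripk1 had another such match farther upstream, within a first exon of the antisense gene Serpinb6a, and an interferon element core (GAAATCGAAA) across its downstream start. The entries of Mlkl, Ripk3, Casp8 and the upstream start of Ripk1 held none of these letters. The Casp8 entry (chr1:58802252-58802501) lies inside the gene, which GENCODE starts at 58795374. The bases before that annotated start were therefore not searched. A match describes letters only, and binding was not measured.

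**Figure D1:**
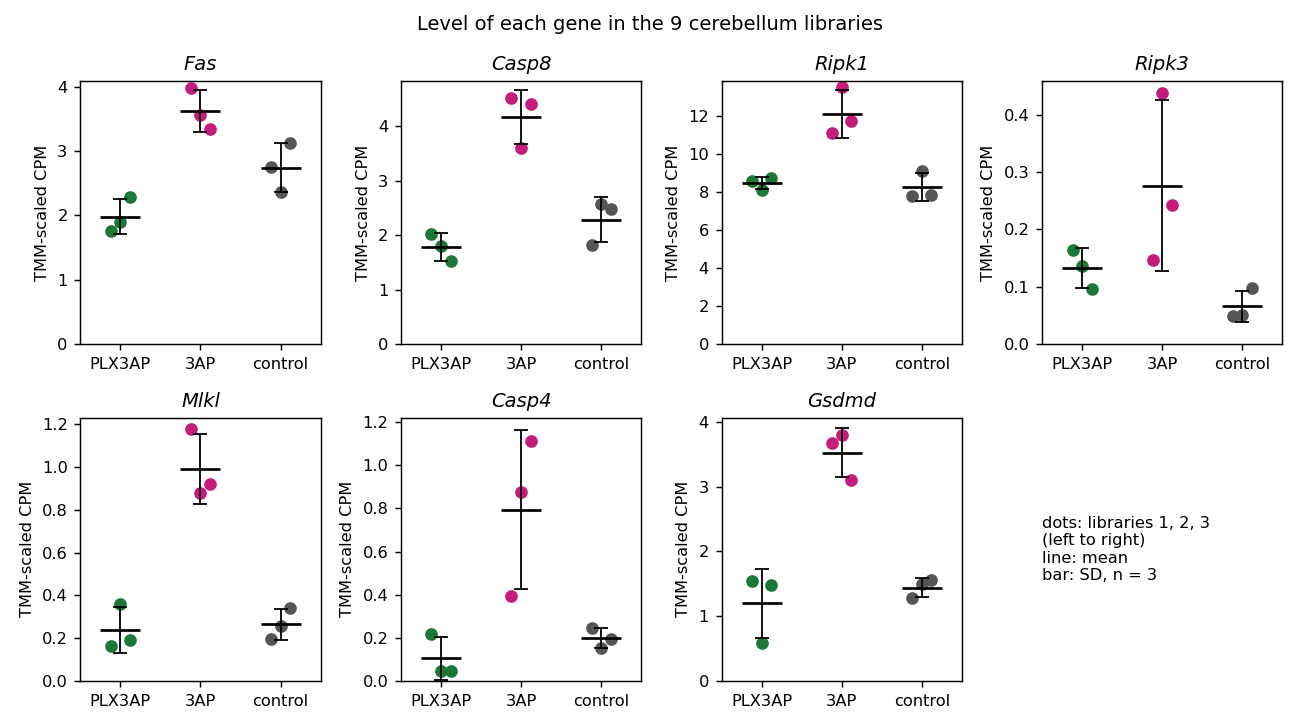
Level of each gene in TMM-scaled CPM (linear axes from 0, with a different scale for each gene), for PLX3AP, 3AP and control from left to right. Dots are libraries 1 to 3, the line is the mean and the bar the SD (n = 3). Each gene's 3AP libraries lie above its control libraries, and above its PLX3AP libraries for every gene but Ripk3.

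In the positions of GENCODE release M21 on GRCm38, Fas (chr19:34290666-34327772, plus strand), the death receptor of the group, had 1.76, 1.90 and 2.29 CPM in the PLX3AP libraries, 3.98, 3.56 and 3.35 CPM in the 3AP libraries, and 2.75, 2.36 and 3.12 CPM in the control libraries. The 3AP libraries were highest and the PLX3AP libraries lowest, and no group overlapped another. Casp8 (chr1:58795374-58847503, plus strand), the initiator caspase recruited to death receptors, had 2.03, 1.81 and 1.53 CPM in PLX3AP, 4.52, 3.60 and 4.41 CPM in 3AP, and 1.82, 2.57 and 2.49 CPM in control. Its 3AP libraries stood above all others, and its PLX3AP and control libraries overlapped.

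Ripk1 (chr13:34002363-34037147, plus strand), the kinase at the head of the pathway, had 8.57, 8.13 and 8.73 CPM in PLX3AP, 11.1, 13.5 and 11.7 CPM in 3AP, and 7.81, 9.09 and 7.85 CPM in control. The 3AP libraries were again highest, and the PLX3AP libraries lay within the control range. Ripk1 was the only member with counts that were not whole, taken here as a sign of reads divided between genes. It shares 752 exonic bases with the antisense gene Serpinb6a and with Gm17084 on its own strand, and the sources used here do not say whether counting used strand, so some of its reads may belong to Serpinb6a. Serpinb6a itself did not pass the test in 3AP against control (log2 fold change 0.24, edgeR adjusted p = 0.256).

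Ripk3 (chr14:55784995-55788865, minus strand), the kinase that phosphorylates MLKL, was close to undetected, with 3, 3 and 2 counts in the PLX3AP libraries, 3, 9 and 5 counts in the 3AP libraries, and 1, 1 and 2 counts in the control libraries. Mlkl (chr8:111311797-111338177, minus strand), the executioner of necroptosis, had 3, 8 and 4 counts in PLX3AP, 24, 18 and 19 counts in 3AP, and 4, 5 and 7 counts in control. All Mlkl counts outside 3AP were under 10, so the gene passed the filter on low counts only through its 3AP libraries, and had to be higher there to be tested at all.

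Casp4 (chr9:5308828-5336783, plus strand), the mouse gene of caspase-11, which detects cytosolic lipopolysaccharide, had 4, 1 and 1 counts in PLX3AP, 8, 18 and 23 counts in 3AP, and 5, 3 and 4 counts in control. Within 3AP the lowest library was well under the other two. Gsdmd (chr15:75862327-75867408, plus strand), which encodes the pore-forming gasdermin D, had 28, 13 and 31 counts in PLX3AP, 75, 78 and 64 counts in 3AP, and 26, 29 and 32 counts in control. Its 3AP libraries were far above the rest, and PLX3AP library 2 was lowest of all 9. That library also had a choroid plexus marker sum of 37.1 CPM, against 2044 and 1864 CPM in PLX3AP libraries 1 and 3. A link between these was not tested. Casp4 and Ripk3 did not pass the filter, so 5 of the 7 genes were tested with all others.

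Levels can be compared between genes only per transcript length, here in the authors' TPM (transcript abundance scaled to a fixed total). In PLX3AP, Ripk1 (3.35 ± 0.367 TPM, mean ± SD, n = 3) and Fas (2.95 ± 0.890 TPM) had the highest means and overlapped between libraries. Gsdmd (1.60 ± 0.896 TPM), which overlapped Fas, and Casp8 (1.59 ± 0.316 TPM) came next. Casp4 (0.677 ± 1.02 TPM) overlapped both of these through its library 1, and with Ripk3 (0.440 ± 0.104 TPM) and Mlkl (0.310 ± 0.159 TPM) it had the lowest means there. In 3AP the order was Fas (5.66 ± 1.42 TPM), Ripk1 (5.02 ± 0.607 TPM), Gsdmd (4.66 ± 1.19 TPM) and Casp8 (3.98 ± 0.25 TPM) in which every neighbouring pair overlapped. Casp4 (1.52 ± 0.985 TPM), Mlkl (1.08 ± 0.205 TPM) and Ripk3 (0.760 ± 0.265 TPM) followed and overlapped. In control, Fas (3.92 ± 0.801 TPM) and Ripk1 (3.24 ± 0.486 TPM) overlapped, as did Gsdmd (2.20 ± 0.370 TPM) and Casp8 (2.01 ± 0.496 TPM) below them, and Casp4, Mlkl and Ripk3 were at 0.350, 0.263 and 0.197 TPM on average. TPM also depends on the transcript length estimated in each library: PLX3AP library 1 had 4 counts of Casp4 but 1.85 TPM, the highest of that group. The comparisons below therefore use the counts.

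3AP was set against control to ask what the toxin changed without PLX3397. In the main fit Gsdmd, Mlkl, Casp8 and Ripk1 rose in 3AP, and Fas did not pass the test. Gsdmd averaged 3.53 ± 0.372 CPM in 3AP and 1.44 ± 0.147 CPM in control (SD, n = 3 each), a 2.44-fold rise (log2 fold change 1.29, SE 0.32, edgeR adjusted p = 0.0336). Mlkl averaged 0.992 ± 0.163 CPM in 3AP and 0.265 ± 0.0727 CPM in control, 3.68-fold higher (log2 1.88, SE 0.45, edgeR adjusted p = 0.0307), but it was not called by DESeq2 (adjusted p = 0.0669) or by edgeR with no filter (adjusted p = 0.0511). Casp8 averaged 4.18 ± 0.50 CPM in 3AP and 2.29 ± 0.412 CPM in control, 1.82-fold higher (log2 0.87, SE 0.23, edgeR adjusted p = 0.0473). Ripk1 averaged 12.1 ± 1.27 CPM in 3AP and 8.25 ± 0.729 CPM in control, 1.47-fold higher (log2 0.56, SE 0.13, edgeR adjusted p = 0.0277).

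Fas averaged 3.63 ± 0.321 CPM in 3AP and 2.74 ± 0.379 CPM in control, with a log2 fold change of 0.40 (SE 0.21) and an edgeR adjusted p of 0.38. In the fit with no filter on low counts, Casp4 had a log2 fold change of 1.97 (SE 0.68, edgeR adjusted p = 0.108) and Ripk3 one of 1.97 (SE 1.04, edgeR adjusted p = 0.491), so neither passed. Summed over libraries, Casp4 had 49 counts in 3AP against 12 in control, a ratio of 4.0 per library size with an exact 95% counting interval of 2.10 to 8.27. Ripk3 had 17 counts in 3AP against 4 in control, a ratio of 4.17 (1.36 to 17.0). These intervals cover counting error only.

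Thus 4 of the 5 tested genes were called higher, against 3.75% of all tested genes, and 0 were called lower, against 1.18% of all tested genes. Mlkl is among the 4 and passed the filter only through 3AP. The members were also chosen with earlier results of these data known, so the count is a description. For all 7 genes every 3AP library was above every control library, which 13.6% of the tested genes also showed, and for which the exact two-sided permutation test of each gene gives its smallest possible p of 0.1.

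These calls were close to the threshold. With 1 library left out, the edgeR adjusted p of Gsdmd came to 0.0764 to 0.146 without 3AP library 1 or 2 or any control library. Mlkl lost its call without any 3AP or control library (0.0539 to 0.139), and Ripk1 without any 3AP library or without control library 1 or 3 (0.0509 to 0.129). Casp8 lost its call in 8 of 9 cases, all but the fit without PLX3AP library 1 (0.0551 to 0.202). With all libraries, the edgeR fit with the replicate number as a block called none of the 4 (adjusted p 0.0638 to 0.117), nor did limma on TPM call Gsdmd, Casp8 or Ripk1 (0.0505 to 0.234), and Casp8 was not called with no filter or with the 2 groups alone (edgeR adjusted p 0.0584 in both). The number of members called with 1 library left out was 0 to 4, and the direction of all 4 was kept in every fit.

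**Figure D2:**
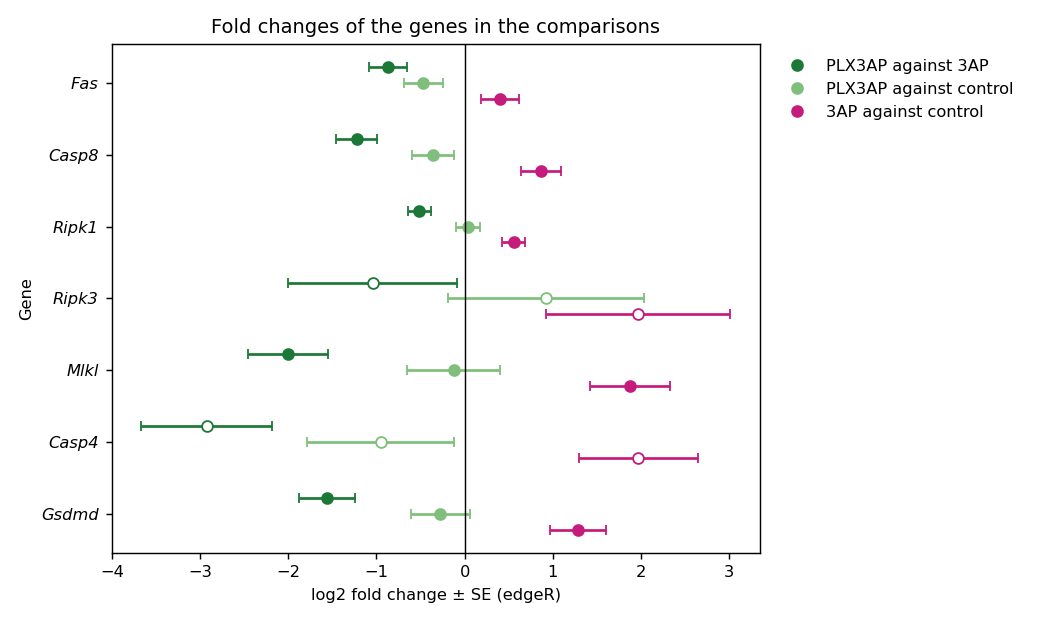
Log2 fold change of each gene (points, with bars of 1 SE) in PLX3AP against 3AP, PLX3AP against control and 3AP against control. Filled points come from the edgeR fit to the 16634 tested genes, and open points, for Ripk3 and Casp4, from the fit with no filter. All 7 genes lie right of 0 in 3AP against control and left of 0 in PLX3AP against 3AP.

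The comparison of PLX3AP with 3AP asks how the response to the toxin differed after PLX3397. In the main fit all 5 tested genes fell in PLX3AP. Casp8, at 1.79 ± 0.253 CPM in PLX3AP and 4.18 ± 0.50 CPM in 3AP, was 2.34-fold lower (log2 -1.22, SE 0.23, edgeR adjusted p = 0.00788). Gsdmd, at 1.20 ± 0.533 CPM in PLX3AP and 3.53 ± 0.372 CPM in 3AP, was 2.95-fold lower (log2 -1.56, SE 0.32, edgeR adjusted p = 0.0139). Mlkl, at 0.239 ± 0.107 CPM in PLX3AP and 0.992 ± 0.163 CPM in 3AP, was 4.01-fold lower (log2 -2.00, SE 0.46, edgeR adjusted p = 0.0258). Fas, at 1.98 ± 0.277 CPM in PLX3AP and 3.63 ± 0.321 CPM in 3AP, was 1.82-fold lower (log2 -0.87, SE 0.22, edgeR adjusted p = 0.0459). Ripk1, at 8.48 ± 0.310 CPM in PLX3AP and 12.1 ± 1.27 CPM in 3AP, was 1.43-fold lower (log2 -0.52, SE 0.13, edgeR adjusted p = 0.0486).

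Among all tested genes 3.16% were called lower and 0.577% higher, against 5 and 0 of the 5 members, again with Mlkl admitted by its 3AP level. This count too is a description, as the members were chosen with earlier results of these data known. Every PLX3AP library lay below every 3AP library for 6 of the 7 genes, where 9.22% of tested genes did so, and Ripk3 overlapped. Casp4 had 6 counts in PLX3AP against 49 in 3AP, a ratio of 0.123 (exact 95% counting interval 0.0430 to 0.287). In the fit with no filter it was 7.59-fold lower (log2 -2.93, SE 0.75, edgeR adjusted p = 0.0111). That call ended without 3AP library 3 or without PLX3AP library 2 or 3 (0.0652 to 0.114), and limma on TPM did not make it (adjusted p 0.616 and 0.676 at the 2 pseudocounts). The log2 fold change of Casp4 was -3.91 without PLX3AP library 1 and -0.67 on log2(TPM + 1). Ripk3 had 8 counts in PLX3AP against 17 in 3AP (log2 -1.04, SE 0.96, edgeR adjusted p = 0.783 with no filter).

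Casp8 kept its call in PLX3AP against 3AP with each of the 9 libraries left out and in all 10 other settings. Gsdmd lost its call without 3AP library 1 or 2 (edgeR adjusted p 0.0524 to 0.0607). Mlkl lost its call without any 3AP library or without PLX3AP library 1 or 3 (0.0535 to 0.119). Fas (0.0503 to 0.193) and Ripk1 (0.0525 to 0.201) lost theirs whichever library was left out. With all libraries, Mlkl was not called by DESeq2 (adjusted p = 0.0634) or with the block (edgeR adjusted p = 0.0721), nor Gsdmd by limma on log2(TPM + 0.1) (adjusted p = 0.0612). Fas lost its call in 6 of 10 other settings (adjusted p 0.0553 to 0.131 over DESeq2, edgeR and limma) and Ripk1 in 7 of 10 (0.0512 to 0.249 over edgeR and limma). With 1 library left out, 1 to 3 members were called.

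**Figure D3:**
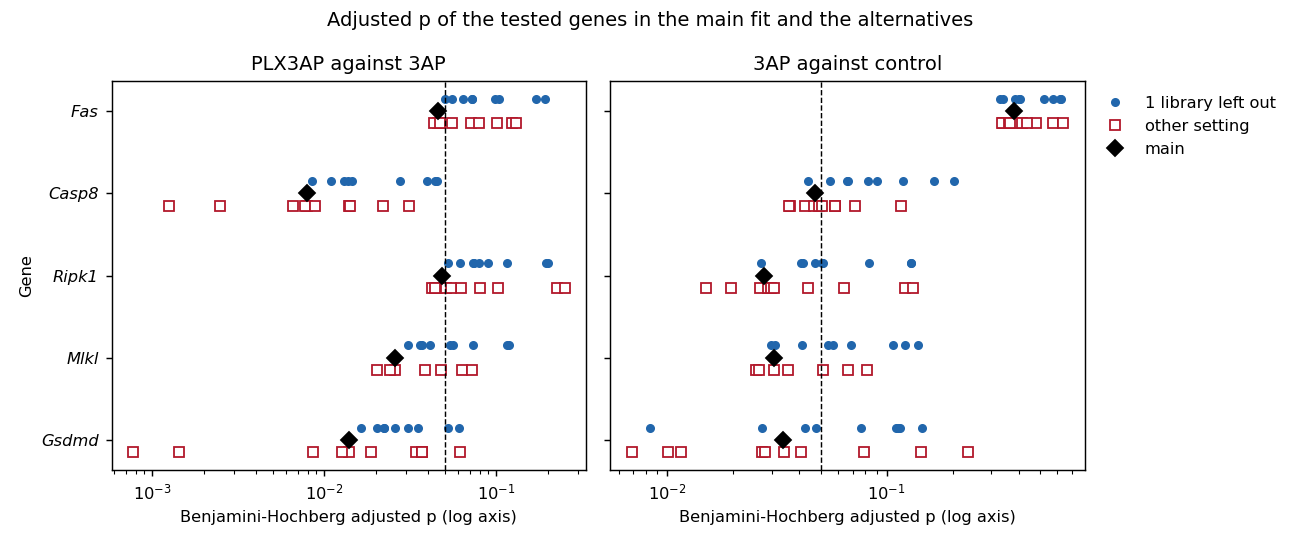
Benjamini-Hochberg adjusted p (log axis) of the 5 tested genes in PLX3AP against 3AP (left) and 3AP against control (right). Diamonds are the main edgeR fit, dots the fits with 1 library left out, squares the other settings, and the dashed line is 0.05. The values for Casp8 in PLX3AP against 3AP are all left of the line, and most other genes have values on both sides.

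The comparison of PLX3AP with control asks how far mice given both agents stood from undamaged ones, and shares its libraries with the other comparisons. None of the 5 tested genes was called, by edgeR, DESeq2 or limma-voom, where edgeR called 0.0361% of all tested genes higher and 0.0842% lower. Unadjusted, no member had an edgeR p under 0.05, against 1556 of the 16634 tested genes. Gsdmd averaged 1.20 ± 0.533 CPM in PLX3AP and 1.44 ± 0.147 CPM in control (log2 -0.27, SE 0.34), and Mlkl 0.239 ± 0.107 CPM in PLX3AP and 0.265 ± 0.0727 CPM in control (log2 -0.12, SE 0.53). Ripk1 averaged 8.48 ± 0.310 CPM in PLX3AP and 8.25 ± 0.729 CPM in control (log2 0.04, SE 0.13), and Casp8 1.79 ± 0.253 CPM in PLX3AP and 2.29 ± 0.412 CPM in control (log2 -0.36, SE 0.24).

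Fas averaged 1.98 ± 0.277 CPM in PLX3AP and 2.74 ± 0.379 CPM in control (log2 -0.47, SE 0.22, edgeR adjusted p = 0.536). Its PLX3AP libraries were all below its control libraries, as for 6.42% of tested genes, and the other 6 genes overlapped. Casp4 had 6 counts in PLX3AP against 12 in control, and Ripk3 had 8 counts in PLX3AP against 4 in control. A p above the threshold does not show that the groups were equal.

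Around the members, 7 lists held 102 further genes of the death pathways, of which 101 were found by their symbols and 85 were tested. In 3AP against control 13 rose (15.3%, against 3.75% of all tested genes) and 1 fell (1.18%, the same share as over all tested genes). The median log2 fold change was 0.11, against 0.00119 over all tested genes. In PLX3AP against 3AP 14 fell (16.5%, against 3.16% of all tested genes) and 0 rose (against 0.577%), with a median of -0.13, against -0.00831 over all. The shares over all tested genes also stand beside the counts of each pathway and marker list below. In PLX3AP against control edgeR called 0 of the 85, against 20 of all 16634 tested genes. DESeq2 called 2 of 84, against 105 of 16941 over all genes. An unadjusted edgeR p under 0.05 was found for 11 of the 85, against 1556 of all 16634 tested genes. The first pair of comparisons share the 3AP libraries, so 11 genes called in both are not independent counts. Like Mlkl, the genes Zbp1, Nlrp3, Il1b and Bcl2a1b passed the filter only through 3AP. Naip6, past the filter's level in 3 3AP libraries and 1 control library, would not have been tested without 3AP either, and these counts and medians are descriptions.

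Among death receptors and their ligands, 3 of 6 tested genes rose in 3AP. Tnfrsf1a, the main TNF receptor that engages RIPK1, averaged 9.70 ± 0.174 CPM in PLX3AP, 19.0 ± 4.40 CPM in 3AP and 9.13 ± 0.823 CPM in control. It was 2.08-fold higher in 3AP than in control (edgeR adjusted p = 0.00147) and 1.96-fold lower in PLX3AP than in 3AP (edgeR adjusted p = 0.00268). Tnfrsf1b, the second TNF receptor, was 2.62-fold higher in 3AP than in control (edgeR adjusted p = 0.00329, against 0.0674 by limma on log2(TPM + 0.1)) and 3.23-fold lower in PLX3AP than in 3AP (edgeR adjusted p = 0.000931). Tnfsf10, which encodes the death ligand TRAIL, averaged 3.34 ± 0.264 CPM in PLX3AP, 4.99 ± 0.327 CPM in 3AP and 1.48 ± 0.686 CPM in control. It rose 3.36-fold in 3AP (log2 1.75, edgeR adjusted p = 0.00304, and log2 0.84 by limma on log2(TPM + 1)) and had a log2 fold change of -0.58 in PLX3AP against 3AP (edgeR adjusted p = 0.421). Fasl, the ligand of Fas, had 1 count in PLX3AP, 13 counts in 3AP and 4 counts in control, and Tnf, the ligand of both TNF receptors, had 11 counts in 3AP and 0 in both other groups.

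Most adaptors and regulators of the RIPK1 complexes were not called. Birc3, a ubiquitin ligase for RIPK1, was the only gene of 22 called higher in 3AP than in control, 2.07-fold (edgeR adjusted p = 0.0135). It was 2.03-fold lower in PLX3AP than in 3AP (edgeR adjusted p = 0.0177). Cflar, a caspase-8 relative that restrains it, was 1.29-fold lower in PLX3AP (edgeR adjusted p = 0.0352). Birc3 lost its call in 3AP against control without 3AP library 1 or control library 1 or 2 (0.0544 to 0.0821), and in PLX3AP against 3AP without 3AP library 1 or PLX3AP library 1 or 2 (0.0516 to 0.111). On TPM, limma did not call Birc3 in 3AP against control (adjusted p 0.157 and 0.174) or in PLX3AP against 3AP, where its log2 fold change was -0.42 on log2(TPM + 1) (adjusted p = 0.750) and -0.52 on log2(TPM + 0.1) (adjusted p = 0.753). The edgeR fit with the block did not call Birc3 (adjusted p = 0.0546) or Cflar (adjusted p = 0.0711) in PLX3AP against 3AP. Cflar lost its call in all 9 cases but those without PLX3AP library 1 or control library 3 (0.0595 to 0.184), and with the 2 groups alone (edgeR adjusted p = 0.0767).

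Of 13 tested necroptosis inducers and partners, Zbp1 alone was called. Zbp1 encodes a sensor of Z-form nucleic acid that recruits RIPK3, and it had 24 counts in PLX3AP, 288 counts in 3AP and 7 counts in control. It averaged 0.398 ± 0.115 CPM in PLX3AP, 4.68 ± 1.53 CPM in 3AP and 0.117 ± 0.0801 CPM in control. It was 38.3-fold higher in 3AP than in control (log2 5.26, SE 0.46, edgeR adjusted p = 3.25e-05) and 11.7-fold lower in PLX3AP than in 3AP (log2 -3.55, SE 0.39, edgeR adjusted p = 0.000159). Without control library 2 the log2 fold change of Zbp1 in 3AP against control was 5.88, and on TPM it was 2.73 and 4.26 at pseudocounts of 1 and 0.1. In PLX3AP against 3AP it was -2.43 on log2(TPM + 1). Adar, whose product limits Z-RNA, was not called (log2 0.11 in 3AP against control, edgeR adjusted p = 0.604), nor was Tlr3, a receptor for double-stranded RNA (log2 0.26, edgeR adjusted p = 0.383).

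Of 10 tested inflammasome genes, 2 rose in 3AP and 4 fell in PLX3AP against 3AP. Pycard, the adaptor ASC that joins sensors to caspase-1, averaged 1.40 ± 0.402 CPM in PLX3AP, 6.03 ± 1.29 CPM in 3AP and 1.12 ± 0.437 CPM in control. It was 5.35-fold higher in 3AP than in control (edgeR adjusted p = 0.000709) and 4.31-fold lower in PLX3AP than in 3AP (edgeR adjusted p = 0.00166). Naip2, a sensor of bacterial secretion systems, was 3.42-fold higher in 3AP (edgeR adjusted p = 0.00698) and 4.69-fold lower in PLX3AP (edgeR adjusted p = 0.00197). Naip5 and Naip6, sensors of flagellin, were 7.0-fold and 4.51-fold lower in PLX3AP than in 3AP (edgeR adjusted p = 0.00454 and 0.0458). Neither was called in 3AP against control (log2 1.02 and 0.83, edgeR adjusted p = 0.226 and 0.418). Nor were they called in PLX3AP against control (log2 -1.79 and -1.34, edgeR adjusted p = 0.301 and 0.505). Without PLX3AP library 3 the log2 fold change of Naip5 in PLX3AP against 3AP was -3.63, against -2.81 with all libraries. Naip6, which entered the test through its 3AP libraries, lost its call in 8 of 9 cases, all but without control library 3 (0.0564 to 0.177). Nor was Naip6 called by DESeq2 (adjusted p = 0.116), or by edgeR with no filter, the 2 groups alone or the block (adjusted p 0.0628 to 0.0689). These genes are close paralogs. Some counts of Naip5 were not whole, taken here as a sign of reads divided between genes, so its values are uncertain. Nlrp3, the best known sensor, had log2 fold changes of 1.06 in 3AP against control (edgeR adjusted p = 0.21) and -1.70 in PLX3AP against 3AP (edgeR adjusted p = 0.0597).

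Of 8 tested pyroptosis effectors and products, 4 rose in 3AP and 3 fell in PLX3AP. Gbp2, a guanylate-binding protein that helps expose lipopolysaccharide to caspase-11, averaged 4.77 ± 0.189 CPM in PLX3AP, 14.9 ± 4.38 CPM in 3AP and 3.66 ± 0.151 CPM in control. Its rise in 3AP was 4.08-fold (edgeR adjusted p = 9.96e-05), and in PLX3AP it was 3.13-fold lower than in 3AP (edgeR adjusted p = 0.000374). Gbp3 and Gbp5 of the same family rose 2.5-fold and 2.56-fold in 3AP (edgeR adjusted p = 0.00112 and 0.000793), and Gbp3 was 2.59-fold lower in PLX3AP (edgeR adjusted p = 0.000875). Gbp5 had a log2 fold change of -0.43 in PLX3AP against 3AP (edgeR adjusted p = 0.33). Il1b, the cytokine released through gasdermin pores, had 2 counts in PLX3AP, 51 counts in 3AP and 6 counts in control, and was called in both comparisons (edgeR adjusted p = 0.0413 in 3AP against control and 0.0139 in PLX3AP against 3AP). It lost the first call without any 3AP or control library (0.0522 to 0.141), and the other without 3AP library 2 or PLX3AP library 2 or 3 (0.0535 to 0.0783). The block also ended the first call (edgeR adjusted p = 0.103). The log2 fold change of Il1b in PLX3AP against 3AP was -4.42, and -7.11 without PLX3AP library 1. The other gasdermin with substantial counts, Gsdme, had a log2 fold change of -0.32 in 3AP against control (edgeR adjusted p = 0.156), and Ninj1, which ruptures the membrane after pore formation, one of 0.09 (edgeR adjusted p = 0.826).

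The remaining caspases showed no call. Casp1, the caspase of canonical inflammasomes, had log2 fold changes of 0.80 in 3AP against control and -0.99 in PLX3AP against 3AP (edgeR adjusted p = 0.317 and 0.288). The only call of this list was Serpina3n, a secreted inhibitor of serine proteases rather than of caspases, at 5.15 ± 0.403 CPM in PLX3AP, 90.2 ± 54.3 CPM in 3AP and 3.63 ± 0.190 CPM in control. It was 24.8-fold higher in 3AP (edgeR adjusted p = 0.00197) and 17.5-fold lower in PLX3AP than in 3AP (edgeR adjusted p = 0.00287), with a wide spread among 3AP libraries.

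In mitochondrial apoptosis, 2 of 16 tested genes were called in 3AP against control. Bcl2a1b, a survival protein of blood cells, rose 5.91-fold in 3AP (edgeR adjusted p = 0.00487) and was 4.25-fold lower in PLX3AP (edgeR adjusted p = 0.0144). The call in PLX3AP against 3AP ended without 3AP library 1 or PLX3AP library 2 or 3 (0.0590 to 0.0812). On log2(TPM + 1) its log2 fold change was 1.55 in 3AP against control, against 2.56 by edgeR, and -1.33 in PLX3AP against 3AP, against -2.09 by edgeR. Some of its counts were not whole, as were some of its paralogs Bcl2a1a and Bcl2a1d, so its values are uncertain. Cycs, cytochrome c, averaged 132 ± 12.4 CPM in 3AP and 173 ± 8.45 CPM in control (log2 -0.39, SE 0.10, edgeR adjusted p = 0.0346). It lost its call without any control library, 3AP library 1 or 2 or PLX3AP library 2 (0.0571 to 0.157), with the block (edgeR adjusted p = 0.0683), and by limma on TPM (adjusted p 0.0997 and 0.102).

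**Figure D4:**
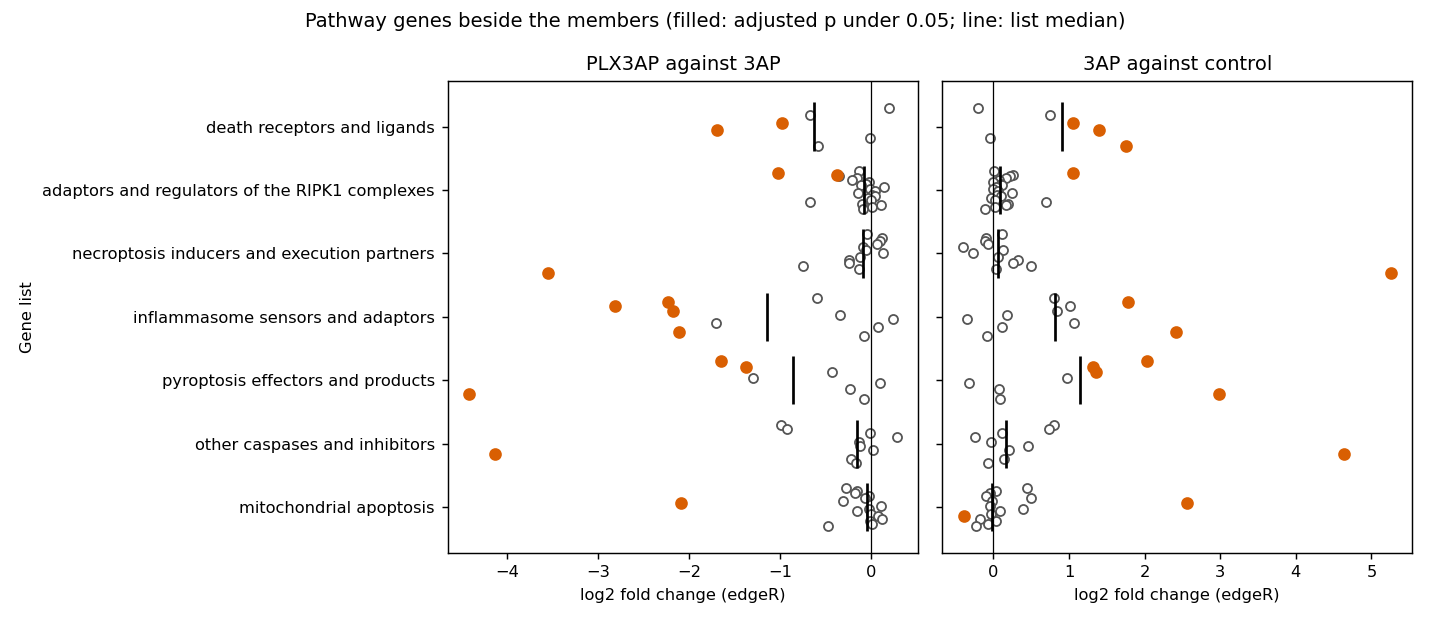
Log2 fold changes (edgeR) of the tested genes in the 7 pathway lists, in PLX3AP against 3AP (left) and 3AP against control (right). Each point is a gene, filled where its adjusted p is under 0.05, and the vertical bar is the list's median. Zbp1, Serpina3n and Il1b lie farthest from 0 in both panels. Most genes of the RIPK1 adaptor and mitochondrial apoptosis lists lie near 0. Exceptions are Birc3 (-1.02 left, 1.05 right) and Bcl2a1b (-2.09 left, 2.56 right).

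Summed markers of several cell types also differed between groups. The 15 microglial markers summed to 117 to 181 CPM in PLX3AP, 419 to 508 CPM in 3AP and 204 to 227 CPM in control, so the groups did not overlap. Of these, 9 rose in 3AP against control, 10 fell in PLX3AP against 3AP and 0 passed in PLX3AP against control, where their median log2 fold change was -0.65. The 8 markers of border-associated macrophages summed to 4.28 to 8.16 CPM in PLX3AP, 35.1 to 38.1 CPM in 3AP and 24.4 to 26.8 CPM in control, and 5 of the 7 tested fell in PLX3AP against control. Markers of monocytes and neutrophils summed to 2.62 to 4.2 CPM in PLX3AP, 13.4 to 30.2 CPM in 3AP and 2.11 to 5.65 CPM in control, with Elane at 0 in every library. Of its 8 tested genes, 5 rose in 3AP and 6 fell in PLX3AP against 3AP.

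The 12 endothelial markers summed to 390 to 395 CPM in PLX3AP, 581 to 637 CPM in 3AP and 391 to 409 CPM in control. In 3AP against control 8 rose and 1 fell, in PLX3AP against 3AP 7 fell and 1 rose, and in PLX3AP against control 0 passed. Lymphocyte markers summed to 0.542 to 0.879 CPM in PLX3AP, 1.02 to 1.77 CPM in 3AP and 0.770 to 0.933 CPM in control. Every 3AP library was thus above every other, and no gene of the list had enough counts to test. Mural cell markers summed to 245 to 263 CPM in PLX3AP, 229 to 265 CPM in 3AP and 263 to 296 CPM in control, and none was called.

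Other lists also separated groups. Meningeal fibroblast markers summed to 120 to 157 CPM in PLX3AP and 165 to 215 CPM in 3AP, while control, at 130 to 224 CPM, overlapped both, and 3 of 8 fell in PLX3AP against 3AP. Granule cell markers summed to 4981 to 5226 CPM in PLX3AP, 4293 to 4844 CPM in 3AP and 5179 to 5389 CPM in control, lower in every 3AP library than in any other. Oligodendrocyte markers summed to 7154 to 8012 CPM in PLX3AP and 5757 to 6984 CPM in 3AP, and control, at 6379 to 8137 CPM, overlapped both. Those of oligodendrocyte precursors summed to 182 to 211 CPM in PLX3AP, 163 to 189 CPM in 3AP and 230.05 to 251 CPM in control, and 3 of 8 fell in 3AP against control. Erythroid markers summed to 345 to 854 CPM in PLX3AP, 167 to 258 CPM in 3AP and 255 to 379 CPM in control, and none was called. Summed markers of Purkinje cells and of astrocytes and Bergmann glia overlapped between all groups. Single astrocyte and Bergmann glia markers moved in opposite directions, which a sum can hide. Of these 10, 1 rose and 3 fell in 3AP against control, and 1 rose and 1 fell in PLX3AP against 3AP.

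In bulk tissue, fewer cells of a type and less RNA per cell cannot be told apart, and the part of these cell types in the members' levels was not tested. Every PLX3AP library was below control in the microglial and border-associated macrophage sums and in Fas. In the endothelial sum and in the other members, PLX3AP and control libraries overlapped. Whether any member followed any of these sums was not tested.

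**Figure D5:**
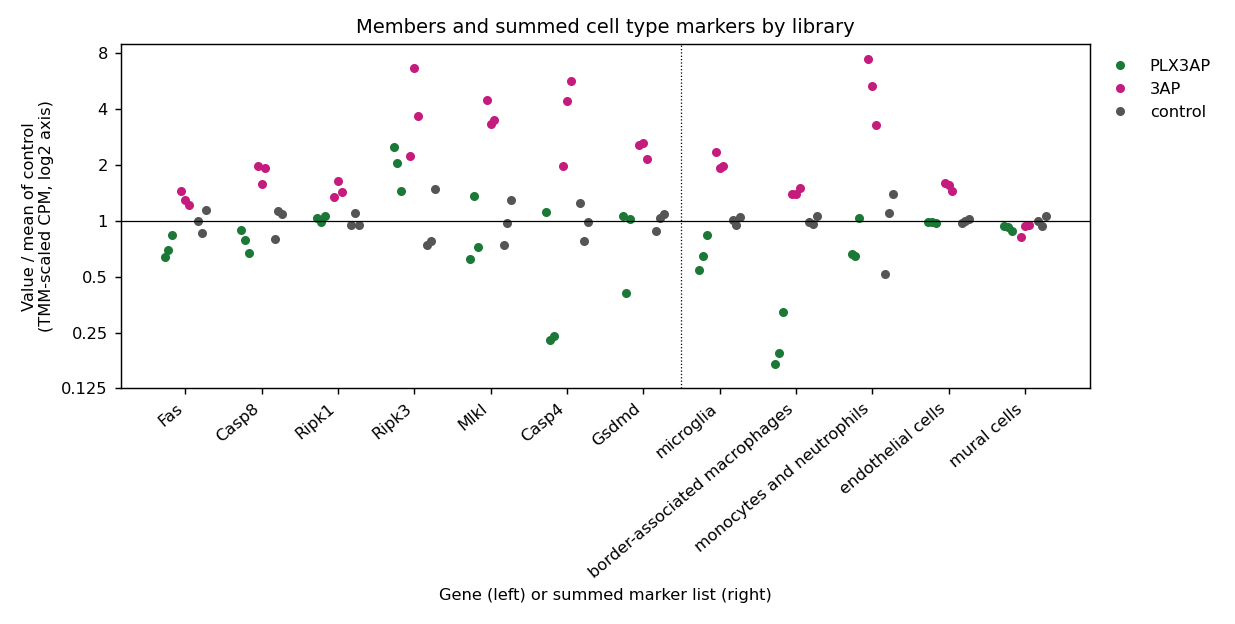
Level of each member (left) and summed level of each marker list (right) in every library, divided by the control mean (log2 axis). PLX3AP, 3AP and control are drawn from left to right for each item. The 3AP dots of microglia, border-associated macrophages, monocytes and neutrophils and endothelial cells lie above those of both other groups. The same holds for 6 of the members. Border-associated macrophage dots of PLX3AP fall under 0.5.

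The tested genes closest to each member were found by the root mean square distance between profiles of log2 CPM over the 9 libraries, each centred on its own mean. Ripk1 had the closest match, Col12a1 (0.0582), followed by Rflnb (0.0666) and Samhd1 (0.0745), as small changes give small distances. Fas lay nearest to Plp2 (0.0954), Anxa3 (0.116) and Vsir (0.117). Casp8 lay nearest to Nos3 (0.172), Ptpn18 (0.180) and Col5a3 (0.185). For Mlkl the nearest were Arhgdib (0.193), Apobec3 (0.228) and Ly6a (0.234). For Gsdmd they were Gimap4 (0.197), Uhrf1 (0.213) and Parvg (0.262). No member was among the 3 nearest of another, and a distance over 9 libraries in 3 groups is a description of the pattern only.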

How the data were processed

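The submitters' processing notes name the tools RSEM, StringTie, HISAT2 and fastp and the build mm10, without versions. The sources used here do not give the annotation release, strandedness or any filter. For each library the authors deposited expected counts, that is estimated reads per gene with no normalisation, and TPM, scaled by them to transcript length and library total.

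The 1884 rows that name no gene held 0.526 to 0.660% of counts and were dropped. The main test was edgeR 4.0.16's quasi-likelihood test (R 4.3.3) on rounded expected counts, with TMM scaling, robust dispersion and a group term over the 9 libraries. The filter (filterByExpr, minimum count 10) kept 16634 genes. Fold changes and CPM were computed here. Tests were two-sided, Benjamini-Hochberg adjustment ran over every tested gene of a comparison, and genes with an adjusted p under 0.05 were called. An SE is the log2 fold change over the square root of F. Alternatives used DESeq2 1.42.0, limma 3.58.1 (voom, and log2 of the deposited TPM plus 1 or 0.1 for genes at 1 TPM or more in at least 3 libraries), other scalings and filters, fits to 2 groups, a replicate block and each library left out. In the fit with no filter, leaving libraries out was added after seeing the data.

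All 7 members are named. Of the pathway lists, called genes are named with values for at most 4 per list and comparison. Fasl, Tnf, Adar, Tlr3, Nlrp3, Gsdme, Ninj1 and Casp1 were chosen after their values were seen. The members and lists were chosen with earlier results of these data known. Positions are from GENCODE M21 and promoters from RefSeq.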

Additional observations from a re-analysis of the deposited data

How the results depend on the processing

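Of the members, 4 were called in 3AP against control, 5 in PLX3AP against 3AP and 0 in PLX3AP against control. In 3AP against control the count was 2 with no filter beyond 1 count, and 0 with the replicate block and with limma on TPM at either pseudocount, and 0 to 4 with 1 library left out. In PLX3AP against 3AP it was 3 with a filter of 1 CPM in 3 libraries (which left out Mlkl), 3 with the 2 groups alone, 2 with the replicate block, 2 on log2(TPM + 1) and 1 on log2(TPM + 0.1), and 1 to 3 with 1 library left out. In PLX3AP against control it was 0 in every setting run. Whether libraries of the same number were paired is not stated in the sources used here. Their deviations from the group means had correlations of -0.20 to 0.09, which cannot decide it with 3 libraries a group.

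Over all genes, 820 calls in 3AP against control became 494 and 447 on TPM with pseudocounts of 1 and 0.1, and 476 to 997 with 1 library left out. The 621 calls in PLX3AP against 3AP became 350 on log2(TPM + 0.1), and 408 to 725 with 1 library left out. The 20 calls in PLX3AP against control became 105 with DESeq2, 71 with no filter, 10 with the block, 7 at either TPM pseudocount, and 7 to 125 with 1 library left out. Of the pathway genes, 14 calls in 3AP against control and 14 in PLX3AP against 3AP became 9 each on log2(TPM + 0.1). Leaving out 1 library gave 11 to 15 in 3AP against control and 9 to 15 in PLX3AP against 3AP (9 without PLX3AP library 2). The 0 in PLX3AP against control became 2 with DESeq2 and 1 with no filter. The cause of these changes was not tested.

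Directions turned round only in PLX3AP against control, where no member was called. With 1 library left out, the log2 fold change of Gsdmd there was -0.49 to 0.063 (0.063 without PLX3AP library 2). That of Mlkl was -0.56 to 0.095 (0.065 without PLX3AP library 1, 0.016 without PLX3AP library 3 and 0.095 without control library 3). That of Casp4 was 0.16 on log2(TPM + 1). Counts under 10 a library in Ripk3, and in most libraries of Casp4 and Mlkl, limit what can be seen of these genes.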
